A study of Homo sapiens with 8 samples.

Results

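The 10 genes described here are ZSCAN4, KHDC1L, KDM4E, RFPL4B, SLC34A2, TRIM43, TRIM43B, TRIM48, TRIM49C and TRIM64B, taken by symbol from a table of read counts for 25369 genes. They belong to the genes known from the cleavage-stage human embryo, and they were chosen by their read counts in these same libraries, as genes higher with Nutlin-3a than with DMSO. Their rise with Nutlin-3a is therefore a description with no test. The cells were CHP212, an established line from a human neuroblastoma, either unmodified (WT) or lacking FAM193A by knockout (KO), and their poly(A) RNA was sequenced. Cells of each genotype received 10 uM Nutlin-3a or 0.2% DMSO, the vehicle, for 12 h. The 4 groups held 2 independent biological replicates each, giving 8 libraries. Nutlin-3a binds MDM2, a ubiquitin ligase, in place of p53 and so spares p53 from degradation. The labels name 1 KO population, so the loss of FAM193A and any other property of that population cannot be told apart.

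In the early human embryo the first large wave of transcription is driven in part by DUX4, a homeobox factor encoded in a repeat array that is silenced in most adult cells. Its known targets include ZSCAN4, KDM4E, RFPL and PRAMEF genes and a set of TRIM genes that lie in recent, near-identical copies, and they are normally silent in somatic and tumour cells. The same genes are known from muscle disease in which the DUX4 array loses its silencing.

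Library totals ran from 28390405 to 38010075 reads, and 15879 genes had enough reads to be tested. CDKN1A and MDM2, p53 targets that served as a check of the treatment, rose with Nutlin-3a by 5.39 and 4.61 on the log2 scale in WT cells and by 5.12 and 3.38 in KO cells. FAM193A RNA was still read in KO cells, with 1240 to 1548 reads per KO library against 1138 to 1529 per WT library. KO minus WT was -0.33 under DMSO (log2, edgeR quasi-likelihood adjusted p = 0.000999) and -0.24 under Nutlin-3a (edgeR adjusted p = 0.00827). The latter call was lost with WT Nutlin-3a replicate 1 left out (adjusted p = 0.0722) or with KO Nutlin-3a replicate 2 left out (adjusted p = 0.107). A transcript can persist after an edit that ends the protein, so these levels do not check the KO label. All 10 neuroblastoma identity genes listed had reads, with summed RPKM (reads scaled to gene length and library depth) of 1268 to 1927 per library. Some libraries held reads that their partner lacked: 56 genes had at least 10 reads in WT Nutlin-3a replicate 1 and at most 1 in its partner, and 36 and 34 genes did so in KO Nutlin-3a replicate 2 and WT DMSO replicate 2, against 6 to 21 genes in the other libraries.

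In WT cells under DMSO the 10 genes were close to silent. Together they drew 4 to 7 reads per library, with a summed RPKM of 0.0732 to 0.204. Under Nutlin-3a the sum was 47.4 to 50.01 RPKM in WT cells and 83.0 to 84.7 in KO cells. KO cells under DMSO lay in between, at 2.43 to 2.84 RPKM. Levels were also compared as CPM (reads scaled to the library total, adjusted by TMM factors). In every one of the 10 genes both Nutlin-3a libraries of a genotype had more CPM than both of its DMSO libraries. Both KO DMSO libraries likewise had more than both WT DMSO libraries. Over all tested genes, 38.7% were separated upward in this way by Nutlin-3a in WT cells, 34.2% in KO cells and 42.3% between KO and WT cells under DMSO. In these bulk samples, a rise in a few cells and a smaller rise in all cells cannot be told apart.

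**Figure D1:**
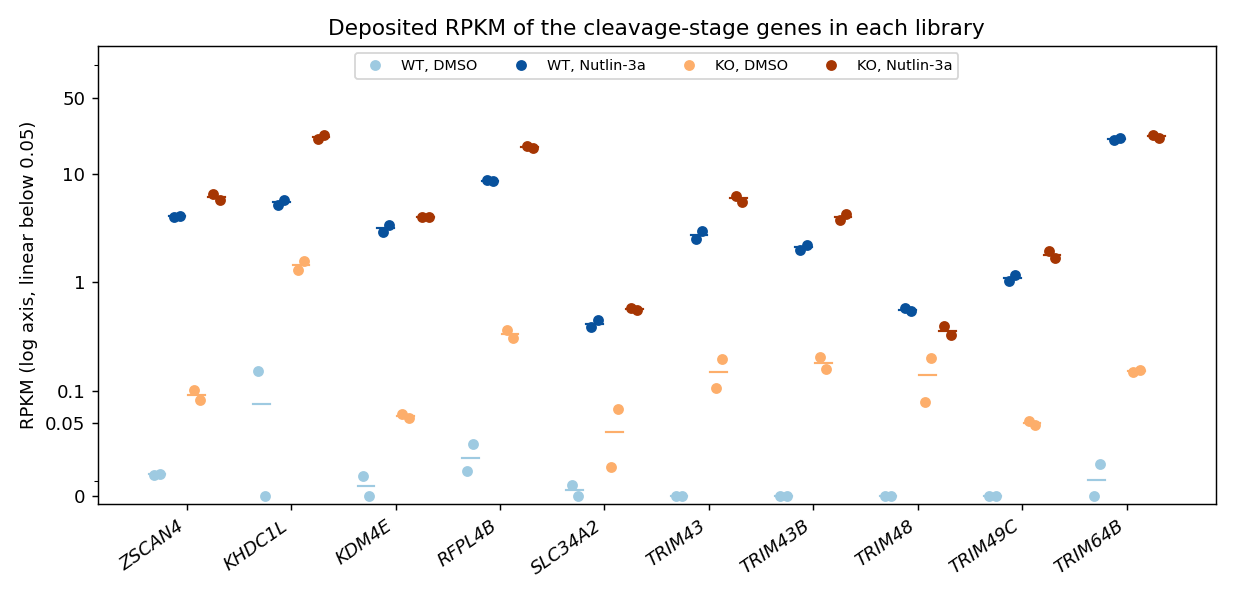
RPKM (vertical axis, logarithmic with a linear stretch below 0.05) of each of the 10 genes in each library, as points coloured by group, with a bar at the mean of the 2 replicates. WT DMSO points lie at or near 0, KO DMSO points above them, and the points of both Nutlin-3a groups highest, with TRIM64B at 20.7 RPKM in WT and 21.98 in KO cells.

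ZSCAN4, a zinc finger protein with a SCAN domain that marks the embryo's first transcription and is known for telomere maintenance in mouse embryonic stem cells, had 1 and 1 reads in the WT and 8 and 7 in the KO libraries under DMSO, and 281 and 260 in the WT and 512 and 410 in the KO libraries under Nutlin-3a. The 4 groups did not overlap. Its level was 4.04 ± 0.0529 RPKM (SD, n = 2) in WT and 6.06 ± 0.551 RPKM (SD, n = 2) in KO cells under Nutlin-3a. On pooled reads, Nutlin-3a over DMSO was 274-fold in WT cells (95% exact counting interval 75.5 to 2268) and 65.2-fold in KO cells (39.3 to 117). None of its 50-base transcript stretches was found in another annotated gene.

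KDM4E, a histone lysine demethylase of the KDM4 family, which removes methyl groups from histone H3 lysine 9, had 1 and 0 reads in the WT and 5 and 5 in the KO libraries under DMSO, and 210 and 225 in the WT and 330 and 300 in the KO libraries under Nutlin-3a. The levels under Nutlin-3a were 3.13 ± 0.365 RPKM in WT and 3.99 ± 0.00497 RPKM in KO cells (SD, n = 2 each). Nutlin-3a over DMSO was 441-fold in WT cells (78.7 to 17443) and 66.8-fold in KO cells (36.1 to 140). The wide interval in WT cells comes from the single read in its DMSO libraries.

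KHDC1L, a KH-domain gene of unsettled function next to KHDC1, had 3 and 0 reads in the WT and 29 and 38 in the KO libraries under DMSO, and 102 and 103 in the WT and 463 and 466 in the KO libraries under Nutlin-3a. It was the highest of the 10 genes per length under DMSO in KO cells, at 1.44 ± 0.196 RPKM (SD, n = 2). Its rise was 69.2-fold in WT cells (23.4 to 338) and 14.7-fold in KO cells (11.5 to 19.1). KHDC1L thus had the smaller fold in KO cells together with the larger level, 21.8 ± 1.54 RPKM against 5.43 ± 0.407 RPKM (SD, n = 2 each).

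RFPL4B, a ret finger protein-like gene with a RING-type and a SPRY domain, had 1 and 2 reads in the WT and 24 and 22 in the KO libraries under DMSO, and 516 and 456 in the WT and 1194 and 1047 in the KO libraries under Nutlin-3a. The groups did not overlap, and KO Nutlin-3a cells had the most reads. The levels under Nutlin-3a were 8.57 ± 0.166 RPKM in WT and 17.5 ± 0.467 RPKM in KO cells (SD, n = 2 each). The rise was 328-fold in WT cells (112 to 1594) and 51.7-fold in KO cells (38.6 to 70.8).

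SLC34A2, a sodium-dependent phosphate transporter known from lung and intestinal epithelium, is best known outside the embryo. It had 1 and 0 reads in the WT and 3 and 11 in the KO libraries under DMSO, and 51 and 54 in the WT and 87 and 76 in the KO libraries under Nutlin-3a. It was the lowest of the 10 per length in WT Nutlin-3a cells, at 0.416 ± 0.0450 RPKM (SD, n = 2), and stood at 0.567 ± 0.0167 RPKM (SD, n = 2) in KO Nutlin-3a cells. The rise was 106-fold in WT cells (18.7 to 4240) and 12.3-fold in KO cells (7.15 to 23.1). Alveolar type 2 cells are the lung cells that carry this transporter. Of their defining genes, SFTPA1 and SFTPA2 had 0 reads in all 8 libraries and SFTPC had 1 read in all. SFTPB, a further surfactant gene of the list, did have reads. Pooled over replicates, WT cells had 23 SFTPB reads without and 18 with Nutlin-3a, and KO cells had 14 and 9. The 8 alveolar genes listed, which include some that other cells express, summed to 4.48 to 5.10 RPKM in WT DMSO, 6.24 to 7.70 in WT Nutlin-3a, 4.90 to 5.10 in KO DMSO and 6.95 to 7.01 RPKM in KO Nutlin-3a libraries. Of the 4 alveolar genes tested, 3 rose in WT and 2 in KO cells with Nutlin-3a (edgeR), against 29.4% and 18.1% of all tested genes. LAMP3, a lysosomal membrane protein, rose by 2.40 in WT and 1.55 in KO cells, and ABCA3, a lipid transporter, by 0.35 and 0.38 (log2). NAPSA, an aspartic protease, rose by 1.31 in WT cells, a call lost with any WT library left out (adjusted p = 0.0509 to 0.161), and had -0.17 in KO cells (adjusted p = 0.748). Their part in the level of SLC34A2 was not tested.

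The 5 TRIM genes encode proteins of the tripartite motif class, a RING ubiquitin ligase fold followed by a B-box and coiled coil, and they belong to families that expanded in primates. TRIM64B had by far the most RNA per length in WT Nutlin-3a cells: 0 and 1 reads in the WT and 8 and 9 in the KO libraries under DMSO, and 971 and 917 in the WT and 1239 and 1039 in the KO libraries under Nutlin-3a. At 20.7 ± 0.569 RPKM (SD, n = 2) in WT Nutlin-3a cells it stood above 85.7% of all genes listed. It made up 42.4% of the summed RPKM of the 10 genes there and 26.2% in KO Nutlin-3a cells. Nutlin-3a over DMSO was 1912-fold in WT cells (343 to 75575) and 142-fold in KO cells (88.5 to 244).

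TRIM43 had 0 and 0 reads in the WT and 6 and 12 in the KO libraries under DMSO, and 126 and 135 in the WT and 360 and 289 in the KO libraries under Nutlin-3a. TRIM43B, its neighbour and near-copy, had 0 and 0, 104 and 105, 12 and 10, and 219 and 228 reads in the same order. With a floor of 3 reads over the WT DMSO group, the rise in WT cells was at least 88.1-fold for TRIM43 and at least 70.6-fold for TRIM43B. In KO cells it was 38.2-fold (24.0 to 64.9) and 21.5-fold (14.1 to 34.7). The pair stayed close in every group, with TRIM43 ahead per length under Nutlin-3a in both genotypes.

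TRIM49C had 0 and 0 reads in the WT and 4 and 4 in the KO libraries under DMSO, and 69 and 72 in the WT and 148 and 115 in the KO libraries under Nutlin-3a. Its rise was at least 47.6-fold in WT cells and 34.9-fold in KO cells (17.4 to 81.6). TRIM48 had 0 and 0 reads in the WT and 4 and 11 in the KO libraries under DMSO, and 26 and 22 in the WT and 20 and 15 in the KO libraries under Nutlin-3a. TRIM48 was the 1 member whose KO Nutlin-3a libraries both lay below both WT Nutlin-3a libraries. Its rise was at least 16.2-fold in WT cells and 2.47-fold in KO cells (1.32 to 4.88), and its KO DMSO level was 40.4% of its KO Nutlin-3a level, where the other 9 genes had 0.704% to 8.10%. TRIM48, with the fewest reads of the 10 under Nutlin-3a in both genotypes, and SLC34A2 are the members nearest the low end of the choice by RNA level under Nutlin-3a. Just outside the 10 lie related genes with smaller counts, such as LEUTX with 8 reads in WT and 15 in KO Nutlin-3a cells and DUXA with 4 and 9.

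Over the 10 genes, the median rise on pooled reads was 96.8-fold in WT cells, with the 4 genes that had 0 reads in WT DMSO held at their lower bounds, and 36.5-fold in KO cells. The fitted median over all 15879 tested genes was 0.02 in WT and -0.01 in KO cells on the log2 scale. In the whole table, 29.4% of tested genes were called higher with Nutlin-3a in WT cells and 18.1% in KO cells (edgeR adjusted p under 0.05), and nothing is read from the members' own counts there because the choice used these contrasts. The 2 responses share no library.

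The order of levels per length under Nutlin-3a differed between genotypes. In WT cells it ran TRIM64B, RFPL4B, KHDC1L, ZSCAN4, KDM4E, TRIM43, TRIM43B, TRIM49C, TRIM48 and SLC34A2, and only the neighbours KDM4E and TRIM43 overlapped between replicates. In KO cells it ran TRIM64B, KHDC1L, RFPL4B, ZSCAN4, TRIM43, KDM4E, TRIM43B, TRIM49C, SLC34A2 and TRIM48, with overlap of TRIM64B with KHDC1L, of ZSCAN4 with TRIM43 and of KDM4E with TRIM43B. KHDC1L made up 11.2% of the summed RPKM in WT and 25.95% in KO Nutlin-3a cells. Under DMSO in KO cells KHDC1L alone made up 54.6% of the sum, followed by RFPL4B at 0.332 ± 0.0383 RPKM (SD, n = 2).

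The TRIM members share sequence, and the counts of such genes are uncertain because reads from one copy can be lost or assigned to another. Of all 50-base stretches of their transcripts in the GENCODE v29 annotation, 85.3% of those of TRIM64B occur also in another gene, mostly TRIM64, as do 84.3% of those of TRIM49C, mostly TRIM49, 79.3% of those of TRIM43B and 77.3% of those of TRIM43, mostly each other. The share was 31.2% for TRIM48, 44.6% for KHDC1L, 35.1% for RFPL4B and 16.9% for KDM4E, and 0% for ZSCAN4 and SLC34A2. For KHDC1L and RFPL4B the shared stretches lay nearly all in 1 other annotated transcript each. TRIM64, which holds 83.3% of the stretches of TRIM64B, drew 5 reads in all 8 libraries together, against 17 reads of TRIM64B in KO DMSO alone.

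**Figure D2:**
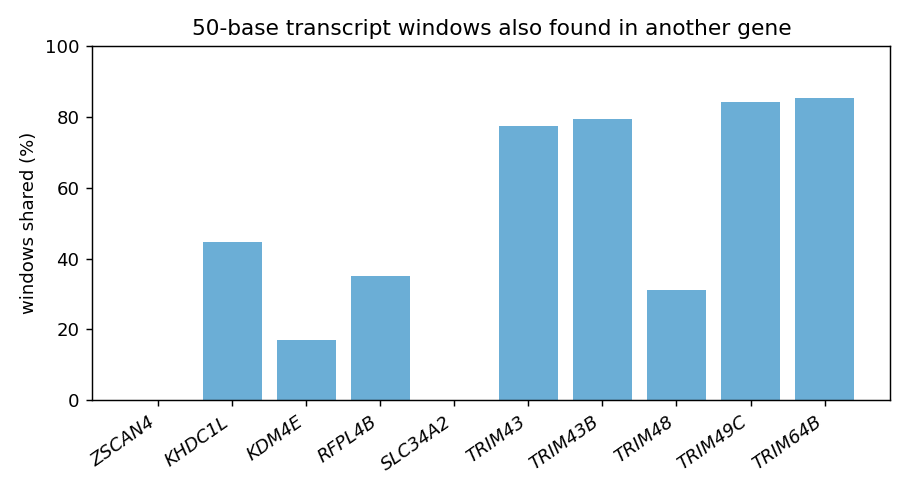
Share (percent, vertical axis) of the 50-base transcript stretches of each of the 10 genes that occur also in a transcript of another gene. The bars of TRIM43, TRIM43B, TRIM49C and TRIM64B stand at 77.3% to 85.3%, and ZSCAN4 and SLC34A2 have none.

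The promoters of members whose levels moved together are shown next, as the 250 bases before the annotated start from RefSeq (GRCh38.p14), with letters that match the DUX4 motif in capitals. RefSeq entries were found for 7 of the 10 genes, in 8 entries, and not for KDM4E, TRIM43 and TRIM43B. The full motif searched was TAA and AATCA with 3 bases of any kind between them, and its core was TAATCA, each on both strands and over the entry's 300 bases, and a full match can contain the core. TRIM48, TRIM64B and KHDC1L are printed because they hold a match, and ZSCAN4 and RFPL4B as members that hold none.
TRIM48, chr11:55261905-55262154 (plus strand): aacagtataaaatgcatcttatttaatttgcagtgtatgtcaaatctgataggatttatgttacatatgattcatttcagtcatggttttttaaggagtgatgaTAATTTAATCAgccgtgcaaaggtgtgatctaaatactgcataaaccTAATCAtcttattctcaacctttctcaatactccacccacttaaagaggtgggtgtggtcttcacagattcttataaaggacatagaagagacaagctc
TRIM64B, chr11:89878488-89878737 (minus strand): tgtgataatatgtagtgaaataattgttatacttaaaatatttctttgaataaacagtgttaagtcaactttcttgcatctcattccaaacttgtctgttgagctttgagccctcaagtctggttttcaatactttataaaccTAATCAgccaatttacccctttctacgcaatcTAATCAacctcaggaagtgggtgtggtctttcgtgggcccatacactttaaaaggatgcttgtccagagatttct
KHDC1L, chr6:73225497-73225746 (minus strand): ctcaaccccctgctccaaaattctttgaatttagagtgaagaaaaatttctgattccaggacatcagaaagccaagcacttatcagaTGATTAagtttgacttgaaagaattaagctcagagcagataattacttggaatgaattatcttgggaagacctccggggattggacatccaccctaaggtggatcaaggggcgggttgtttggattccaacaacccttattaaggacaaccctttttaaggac
ZSCAN4, chr19:57668685-57668934 (plus strand): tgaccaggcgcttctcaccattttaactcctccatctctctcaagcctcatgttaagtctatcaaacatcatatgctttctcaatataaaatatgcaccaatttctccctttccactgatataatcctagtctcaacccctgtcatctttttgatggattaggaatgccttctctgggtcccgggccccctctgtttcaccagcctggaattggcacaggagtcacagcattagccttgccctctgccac
RFPL4B, chr6:112347080-112347329 (plus strand): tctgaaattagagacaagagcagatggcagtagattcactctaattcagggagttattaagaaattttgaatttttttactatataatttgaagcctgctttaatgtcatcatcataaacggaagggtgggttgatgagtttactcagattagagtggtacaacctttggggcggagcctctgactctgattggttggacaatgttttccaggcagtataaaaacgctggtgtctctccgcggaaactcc
TRIM48 held the full motif once and the core at 135 and 93 bases before the start, TRIM64B held the core at 2 places, the nearer at 69 bases, and KHDC1L held it on the other strand at 157 bases. So 1 of 7 genes had the full motif and 3 of 7 the core. Among all 35116 RefSeq promoter entries, 0.888% held the full motif and 7.65% the core. A p53 half-site, searched by its consensus, was present in 2 of the 7 genes, TRIM48 and TRIM64B, and in 6.63% of all entries. TRIM48 and TRIM64B also share the run gtgggtgtggtctt close to the start. The matches describe letters in these windows and nothing about binding.

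KO cells without Nutlin-3a held more RNA of all 10 genes than WT cells did. The WT DMSO libraries served in the choice of the genes, which favours genes that are low there, so the adjusted p-values of this contrast are not independent of the choice and describe these libraries. The 10 genes were called higher in KO cells under DMSO (edgeR adjusted p under 0.05), where 31.4% of all tested genes were called higher. When the 4 DMSO libraries were fitted alone, only KHDC1L and RFPL4B passed the low-count filter; both were called and the other 8 were not tested. KHDC1L had the firmest difference, 17.7-fold on pooled reads (5.80 to 88.0), with a fitted log2 difference of 4.05 (SE 0.56, adjusted p = 5.64e-06). RFPL4B was 12.2-fold higher (3.91 to 61.1, log2 3.51, SE 0.52, adjusted p = 1.05e-05). These were the 2 genes with the most reads in KO DMSO cells, 67 and 46 over the group.

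The other 8 genes rested on few reads. They entered the test only because their Nutlin-3a libraries passed the low-count filter. Their adjusted p-values therefore describe these libraries and give no independent support for a difference. TRIM64B was 13.5-fold higher in KO DMSO cells (2.11 to 563, adjusted p = 0.00172). TRIM43B was at least 5.81-fold higher (adjusted p = 0.00018), TRIM43 at least 4.76-fold (adjusted p = 7e-04), TRIM48 at least 3.96-fold (adjusted p = 0.00305) and TRIM49C at least 2.11-fold (adjusted p = 0.00951), since WT DMSO libraries had 0 reads of each. ZSCAN4 was 5.94-fold higher (1.38 to 53.6, adjusted p = 0.00964), SLC34A2 11.1-fold (1.69 to 469, adjusted p = 0.0144) and KDM4E 7.93-fold (1.13 to 344, adjusted p = 0.0251). Over the 10 genes the median was 6.86-fold with the 4 genes at 0 held at their bounds, and the fitted median over all tested genes was 0.01 on the log2 scale.

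Some of these calls hang on single libraries. Leaving out 1 library keeps the choice of the genes and keeps Nutlin-3a libraries in the fit. In the full fit all members but KHDC1L and RFPL4B passed the filter through Nutlin-3a libraries. A call that holds with 1 library left out is therefore no check of the choice or of the filter. ZSCAN4 was no longer called without WT DMSO replicate 1 (adjusted p = 0.0562). KDM4E was no longer called without WT DMSO replicate 2 (adjusted p = 0.167), KO DMSO replicate 1 (0.0647) or KO DMSO replicate 2 (0.0553), and SLC34A2 not without WT DMSO replicate 2 (0.103) or KO DMSO replicate 2 (0.197). With the 3 libraries that held the most unshared reads left out together, an alternative chosen after seeing the data, 6 of the 10 were called. KHDC1L, RFPL4B, TRIM43, TRIM43B, TRIM48 and TRIM64B were called with any 1 library left out.

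Under Nutlin-3a the genotypes differed less in fold and not in the same way for every gene. The same Nutlin-3a libraries served in choosing the genes, so this contrast is not fully independent of the choice. KO cells were called higher for 6 of the 10 genes and lower for 0, against 32.7% and 30.4% of all tested genes (5190 and 4822 genes). On log2(RPKM + 0.1) with limma the same split was 6209 higher and 3747 lower and the median of all genes moved to 0.11, and on log2(RPKM + 1) the split was 6225 and 3777.

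KHDC1L stood farthest apart, at 3.76-fold (3.23 to 4.39) higher in KO Nutlin-3a cells, with a log2 difference of 1.91 (SE 0.16, adjusted p = 5.03e-09). Of all tested genes, 5.01% had a larger log2 difference. TRIM43 was 2.06-fold higher (1.78 to 2.39, adjusted p = 1.85e-05), RFPL4B 1.91-fold (1.77 to 2.06, adjusted p = 2.11e-08), TRIM43B 1.77-fold (1.502 to 2.101, adjusted p = 0.000465) and ZSCAN4 1.41-fold (1.27 to 1.58, adjusted p = 0.00108). TRIM49C was 1.55-fold higher (1.26 to 1.91, adjusted p = 0.0171), a call that ended with replicate 1 of WT Nutlin-3a (0.0951) or of KO Nutlin-3a (0.162) left out.

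The remaining 4 genes did not pass the test. TRIM64B, the most abundant, had a ratio of 1.00 (0.941 to 1.06, adjusted p = 0.99), and its libraries overlapped. KDM4E had a ratio of 1.2015 (1.06 to 1.36, adjusted p = 0.104) and SLC34A2 of 1.29 (1.00 to 1.66, adjusted p = 0.29). TRIM48 had a ratio of 0.605 (0.380 to 0.955, adjusted p = 0.154). On log2(RPKM + 1), limma called KDM4E (adjusted p = 0.0105) and SLC34A2 (adjusted p = 0.0281) higher and TRIM48 lower (adjusted p = 0.0195) in KO cells. Without overlap between the libraries, 8 genes lay higher and TRIM48 lower in KO cells, where 41.2% and 37.9% of all tested genes did so. The median ratio over the 10 genes was 1.48.

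**Figure D3:**
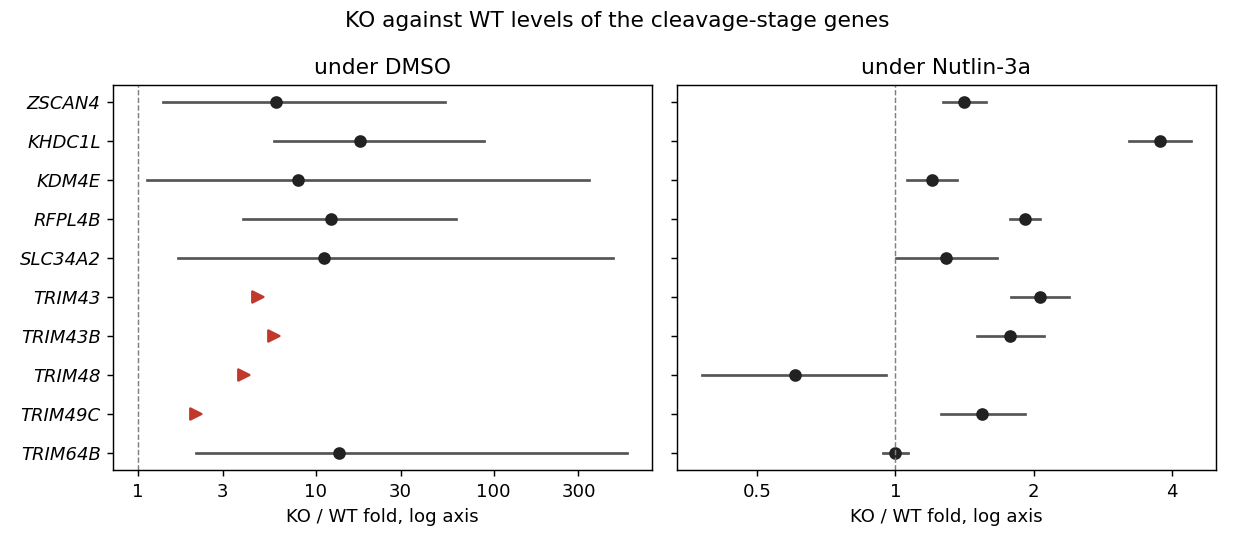
KO over WT ratio of pooled, library-scaled reads (horizontal log axis) for each of the 10 genes under DMSO (left) and under Nutlin-3a (right), with 95% exact counting intervals as lines. Triangles are lower bounds for genes with 0 reads in WT DMSO. Under Nutlin-3a KHDC1L lies at 3.76 and TRIM64B at 1.00, while under DMSO every point or bound lies above 1.

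The change of fold with genotype follows arithmetically from these levels, and for the 10 genes it is given as values alone. Nutlin-3a over DMSO was smaller in KO than in WT cells for the 6 genes with reads in WT DMSO, by their ratios: ZSCAN4 65.2 against 274, KHDC1L 14.7 against 69.2, KDM4E 66.8 against 441, RFPL4B 51.7 against 328, SLC34A2 12.3 against 106 and TRIM64B 142 against 1912. For the 4 genes with 0 reads there, the WT bounds (88.1, 70.6, 16.2 and 47.6 for TRIM43, TRIM43B, TRIM48 and TRIM49C) lay above the KO ratios of 38.2, 21.5, 2.47 and 34.9. The WT intervals are wide because they rest on 0 to 3 reads under DMSO.

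Other copies of the TRIM families moved with the members. Of 20 copies looked for, 10 were listed, 5 of these had 0 reads in all libraries and 4 were tested. All 4 rose with Nutlin-3a in WT cells and in KO cells, against 29.4% and 18.1% of all tested genes. These 4 had 0 reads in WT DMSO, and their high groups alone could satisfy the low-count filter. Their rise was thus favoured in advance and gives no independent support. TRIM49 had 0 reads in the WT and 14 and 14 in the KO libraries under DMSO, and 75 and 74 in the WT and 100 and 98 in the KO libraries under Nutlin-3a, a rise of at least 50.3-fold in WT and of 7.50-fold (5.03 to 11.6) in KO cells. TRIM49B rose at least 37.8-fold in WT and 32.8-fold in KO cells (20.3 to 56.7), TRIM53AP at least 55.0-fold and 32.3-fold (16.2 to 75.8), and TRIM51 at least 4.39-fold and 11.03-fold (4.43 to 35.4). For TRIM51 the WT call did not hold with WT Nutlin-3a replicate 2 left out (adjusted p = 0.0699). TRIM49B was 3.90-fold higher in KO than in WT cells under Nutlin-3a (3.17 to 4.82, adjusted p = 6.57e-07). TRIM49, which holds 83.6% of the stretches of TRIM49C, had a ratio of 1.10 (0.887 to 1.37, adjusted p = 0.594).

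Other genes of the cleavage-stage programme were tested from a list of 51 names. Of these, 41 were listed in the table, 13 had 0 reads in all libraries and 13 were tested. Nutlin-3a raised 9 and lowered 1 of the 13 in WT cells, and likewise 9 and 1 in KO cells. Of all tested genes, 29.4% rose and 29.2% fell in WT cells, and 18.1% rose and 20.6% fell in KO cells. Genes nearly silent under DMSO could pass the low-count filter through their Nutlin-3a libraries alone, so their rise was favoured in advance. The counts and the median of the list are raised by this and give no independent support. The median on pooled reads, with genes at 0 held at their bounds, was 7.09-fold in WT and 5.81-fold in KO cells. MBD3L2, a germline relative of the methyl-DNA-binding protein MBD3, had 0 reads in the WT and 7 and 13 in the KO libraries under DMSO, and 144 and 146 in the WT and 195 and 197 in the KO libraries under Nutlin-3a, a rise of at least 97.9-fold in WT and 20.8-fold in KO cells (13.3 to 34.4). ZNF705A, a zinc finger gene, rose 458-fold in WT (81.8 to 18123) and 43.9-fold in KO cells (21.05 to 110). RFPL4A and RFPL4AL1, relatives of RFPL4B, rose at least 24.3-fold and at least 12.8-fold in WT cells and 11.7-fold (7.96 to 18.0) and 19.4-fold (9.14 to 49.2) in KO cells. CCNA1, the germline cyclin A, which had 48 reads in WT DMSO, rose 6.25-fold in WT (4.59 to 8.66) and 5.81-fold in KO cells (4.36 to 7.87). SNAI1, a repressor of epithelial genes that other cells express widely, was the 1 gene of the list that fell, to a ratio of 0.336 in WT (0.299 to 0.378) and 0.605 in KO cells (0.551 to 0.665).

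DUX4 itself was listed at 0 reads in all 8 libraries. Reads of the repeat array were listed under DUX4L4, a near-identical array copy, so the copy they came from is uncertain. DUX4L4 had 0 reads in the WT and 0 and 0 in the KO libraries under DMSO, and 21 and 21 in the WT and 5 and 4 in the KO libraries under Nutlin-3a. It rose at least 14.2-fold in WT cells (adjusted p = 2.65e-05). In KO cells the rise was at least 3.18-fold (adjusted p = 0.0132), a call lost without KO DMSO replicate 1 (0.0687), KO DMSO replicate 2 (0.0793) or KO Nutlin-3a replicate 1 (0.0649). Under Nutlin-3a, KO cells had fewer DUX4L4 reads, at a ratio of 0.178 (0.0761 to 0.371, adjusted p = 0.00113). Of the 4 groups, WT Nutlin-3a alone had enough DUX4L4 reads for the low-count filter. The rise of DUX4L4 in WT cells and its lower level in KO Nutlin-3a cells were thus favoured in advance. Their adjusted p-values describe these libraries and give no independent support. ZNF705A was lower in KO Nutlin-3a cells too, at 0.532 (0.458 to 0.618, adjusted p = 0.00159), while RFPL4A was 3.57-fold higher (2.76 to 4.68, adjusted p = 6.92e-06). MBD3L2 had a ratio of 1.12 (0.961 to 1.31, adjusted p = 0.41). Of the 13 tested genes, 5 were called higher and 2 lower in KO Nutlin-3a cells, against 32.7% and 30.4% of all tested genes.

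Of the PRAME family, which encodes leucine-rich repeat proteins of germ cells and tumours, 28 names were looked for, 19 were listed, 10 had 0 reads throughout and 5 were tested. Nutlin-3a raised 3 and lowered 1 in WT cells and raised 4 and lowered 0 in KO cells. Over all tested genes, 29.4% rose and 29.2% fell in WT cells, and 18.1% rose and 20.6% fell in KO cells. The PRAMEF genes were nearly silent in WT DMSO, so the filter favoured their rise in advance. PRAMEF12 had 0 reads in the WT and 4 and 7 in the KO libraries under DMSO, and 82 and 81 in the WT and 78 and 67 in the KO libraries under Nutlin-3a, a rise of at least 55.0-fold in WT and 14.0-fold in KO cells (7.58 to 28.6). PRAMEF4 rose 75.0-fold in WT (13.0 to 3000) and 33.3-fold in KO cells (14.0 to 104). PRAMEF1 rose at least 7.09-fold in WT and 4.95-fold in KO cells (2.01 to 14.6), the latter call being lost with KO DMSO replicate 2 (adjusted p = 0.203) or either KO Nutlin-3a library (0.114 and 0.0562) left out. PRAMEF2 was called in KO cells at 14.3-fold (3.60 to 124), and in WT cells it had 1 read under DMSO and 4 under Nutlin-3a. PRAME, the family's tumour antigen, stood at 85.6 to 138 RPKM in the 4 group means and did not share the rise, with -0.18 (log2) in WT cells, a call lost without WT DMSO replicate 1 (0.0786), and -0.04 in KO cells (adjusted p = 0.494).

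**Figure D4:**
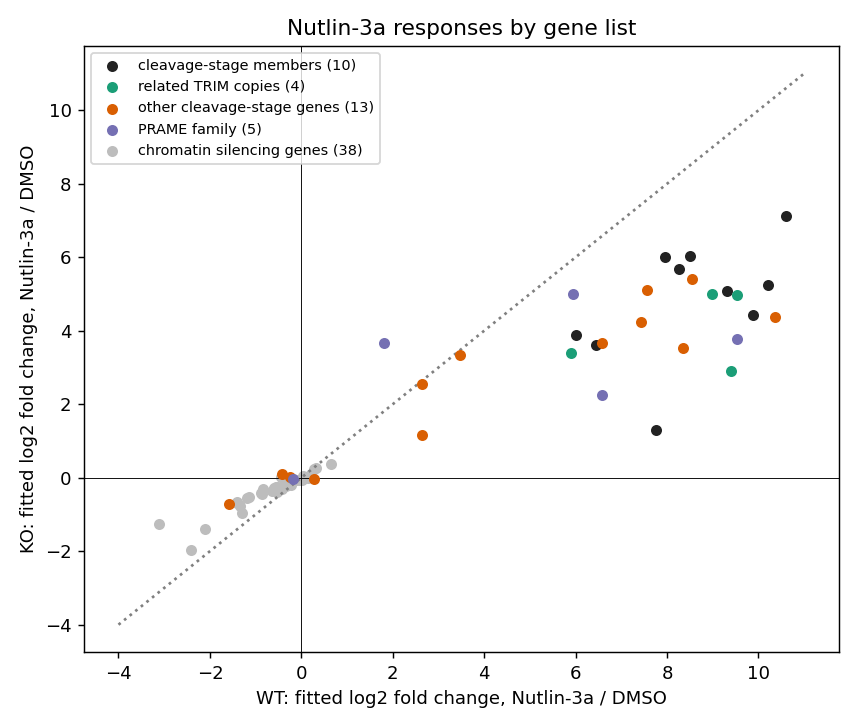
Fitted log2 fold change with Nutlin-3a in WT (horizontal axis) against KO cells (vertical axis) for the 10 cleavage-stage genes and the tested genes of 4 further lists, coloured by list, with the dotted line of equal change. The 10 genes, in black, lie right of and below the line. Fitted values of genes with 0 reads in WT DMSO depend on the prior count and are not lower bounds.

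Of the genes known to silence repeats and germline genes, more fell than rose with Nutlin-3a. All 38 genes of this list were tested. In WT cells 28 fell and 5 rose, and in KO cells 23 fell and 3 rose, where 29.2% and 20.6% of all tested genes fell. The list's median was -0.45 in WT and -0.25 in KO cells (log2). The 6 genes of the list with the smallest edgeR p come first, and not all of them had the largest falls. UHRF1, which recruits maintenance DNA methylation, fell (-2.41 in WT and -1.97 in KO cells). CHAF1B and CHAF1A, subunits of the chromatin assembly factor of DNA replication, fell too (-3.10 and -2.11 in WT, -1.26 and -1.39 in KO cells). So did DNMT1, the maintenance DNA methyltransferase (-1.40 and -0.65). RBBP7 and EZH2, which serve in polycomb repression, fell by 1.14 and 1.18 in WT and by 0.52 and 0.55 in KO cells on the log2 scale. These 6 genes are also known for their higher expression in cells that replicate DNA, and their part in the rise of the cleavage-stage genes was not tested. Named after their values were seen as repressors known at the DUX4 array, SMCHD1 fell by 0.89 in WT and 0.41 in KO cells, DNMT3B fell by 1.29 and 0.96, and LRIF1 rose by 0.32 and 0.28. The LRIF1 call in KO cells was lost with KO DMSO replicate 2 (adjusted p = 0.0639) or replicate 1 of KO Nutlin-3a (0.0829) left out.

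In KO against WT cells under Nutlin-3a, 21 of the 38 silencing genes were higher and 7 lower, against 32.7% and 30.4% of all tested genes. CHAF1B was higher by 1.52 (log2, adjusted p = 5.5e-11) and SMCHD1 by 0.42 (adjusted p = 9.51e-06) in the KO cells. Under DMSO, 7 of the 38 were higher and 18 lower in KO cells, against 31.4% and 30.1% of all tested genes.

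Relatives of the members that are not cleavage-stage genes behaved differently from gene to gene. With Nutlin-3a, 29.4% of all tested genes rose and 29.2% fell in WT cells, and 18.1% rose and 20.6% fell in KO cells. Of 4 other tested KDM4 genes, 3 rose with Nutlin-3a in both genotypes: KDM4B by 1.64 in WT and 0.68 in KO cells, KDM4A by 0.75 and 0.17, and KDM4C by 0.53 and 0.24 (log2). The KO calls of KDM4A were lost without KO DMSO replicate 1 (adjusted p = 0.0614), KO DMSO replicate 2 (0.168) or KO Nutlin-3a replicate 2 (0.149), and that of KDM4C without KO DMSO replicate 1 (0.0775) or KO Nutlin-3a replicate 1 (0.051). KDM4D, the neighbour of KDM4E in the genome, had -0.29 in WT cells (adjusted p = 0.206). KDM4B reached 26.4 RPKM in WT Nutlin-3a cells, where KDM4E had 3.13. Of 4 tested phosphate transporters besides SLC34A2, 2 rose and 1 fell in WT cells, and 2 rose and 0 fell in KO cells. SLC34A3, the closest relative tested, rose by 2.13 in WT and 1.80 in KO cells (log2), the KO call being lost with replicate 1 of KO DMSO (adjusted p = 0.105) or of KO Nutlin-3a (0.0676) left out. XPR1, a phosphate exporter, rose by 0.42 and 0.50. SLC20A1, a sodium-dependent phosphate importer, fell by 0.12 in WT cells, a call lost without WT DMSO replicate 1 (0.223) or WT DMSO replicate 2 (0.0882).

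The genes next to the members in the genome moved in both directions. Of 18 nearest listed protein-coding genes in RefSeq order that are not members, 12 were tested. Of these, 3 rose and 5 fell with Nutlin-3a in WT cells, against 29.4% and 29.2% of all tested genes. In KO cells 3 of the neighbours rose and 2 fell, against 18.1% and 20.6% of all tested genes. The 3 that rose in either genotype, named after their values were seen, were TRIM49 next to TRIM64B, SRSF8 next to KDM4E and ZNF211 next to ZSCAN4. SRSF8, a splicing factor gene, rose by 2.101 in WT and 1.62 in KO cells (log2). ZNF211 rose by 0.54 in WT cells and by 0.20 in KO cells, where the call was lost without WT DMSO replicate 2 (adjusted p = 0.0658), KO DMSO replicate 1 (0.146), KO DMSO replicate 2 (0.21) or KO Nutlin-3a replicate 1 (0.402). KHDC1, the neighbour of KHDC1L, had 6 reads in all.

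The lists of other cell types gave the following values, where 29.4% of all tested genes rose with Nutlin-3a in WT and 18.1% in KO cells. The shares that fell were 29.2% and 20.6%. Of 16 pluripotency genes, 2 had 0 reads throughout, among them LIN28A, and 5 were tested; 4 of these rose in each genotype, and POU5F1, the defining gene, had 0 to 9 reads per library. With Nutlin-3a, KLF4 rose by 1.13 in WT and 1.17 in KO cells and NANOG by 0.50 and 0.34 (log2), the KO call of NANOG being lost without KO DMSO replicate 1 (adjusted p = 0.0659), KO DMSO replicate 2 (0.156) or KO Nutlin-3a replicate 1 (0.257). SALL4 rose by 0.53 in KO cells, and by 0.19 in WT cells, a call lost with each of the 8 libraries left out in turn. UTF1 was called higher in both genotypes on 0 to 13 reads per library, and its WT call was lost with 5 of the 8 libraries left out in turn. With 0 reads under DMSO, UTF1 could pass the low-count filter only through its KO Nutlin-3a libraries. Its rise in KO cells was thus favoured in advance and gives no independent support to the count of 4. The summed RPKM of the 16 genes was 21.8 to 23.3 in WT DMSO, 37.9 to 40.1 in WT Nutlin-3a, 20.4 to 21.6 in KO DMSO and 30.8 to 34.0 in KO Nutlin-3a libraries. Of 16 oocyte genes, 9 had 0 reads and 3 were tested, with 0 called higher and 1 lower in WT cells and 0 called in KO cells by edgeR, and their sums were 4.83 to 4.92 RPKM in WT and 6.42 to 7.37 RPKM in KO libraries. Of 16 male germline genes, 9 had 0 reads and 1 was tested, with no call, and their sums stayed at 0.0603 to 0.470 RPKM over all libraries. Over all 8 libraries the summed RPKM was 129 to 367 for 8 epithelial genes, higher in all 4 WT than in all 4 KO libraries, and 1133 to 1434 for 8 fibroblast genes, lower in all 4 WT libraries. It was 0.942 to 2.199 for 10 blood genes, 1.196 to 2.98 for 8 muscle genes, 0.355 to 1.41 for 6 endothelial genes, 0.273 to 0.596 for 6 liver genes and 0.520 to 0.893 for 5 melanocyte genes. The part of other cell types in the members' levels was not tested beyond these values.

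The 10 genes moved together over the 8 libraries, which follows in part from their choice by the treatment contrast. The correlation of a member's log2 CPM with the mean of the members' standardised log2 CPM ran from 0.939 for TRIM48 and 0.958 for KHDC1L to 0.998 for TRIM43 (Pearson's r over 8 libraries that share the treatment contrast). The non-member genes most like that mean, among 11132 genes, were LITAF and CROT (0.998 each), MZF1, ZNF337 and FAM19A2 (0.996 each), and TRIM32, LZTR1 and ENC1 (0.994 each). They were far more abundant under DMSO and rose less: in WT cells by 3.85 (log2) for FAM19A2, 1.75 for ZNF337, 1.64 for CROT, 1.46 for ENC1, 1.38 for LITAF, 1.05 for TRIM32, 0.59 for MZF1 and 0.43 for LZTR1. In KO cells the same 8 genes rose by 3.05, 1.2001, 1.11, 1.09, 0.98, 0.71, 0.47 and 0.29. Candidates for likeness needed a mean log2 CPM of at least 0, where the members ran from -1.77 for TRIM48 to 1.34 for RFPL4B. That floor leaves out many genes silent under DMSO, so the greater abundance and smaller rise were favoured in advance.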

How the data were processed

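Poly(A) RNA of 8 libraries in 4 groups was analysed, grouped by the sample titles. The authors deposited a whole read count for each gene and an RPKM value (scaled by gene length and depth), per the file headers. The submitters' processing notes name HTSeq 0.8.0, TopHat2 2.1.1 and Bowtie2 2.2.9.0 with the hg19 build, besides Picard 2.9.4, SAMtools 1.5, FastQC 0.11.5 and bcl2fastq. Libraries were strand-specific, per the labels' protocols. Which gene models and strand option the counting used is not given in the sources used here. Counts were filtered with filterByExpr, which kept 15879 genes and removed 9490, and scaled by TMM. A model of the 4 group means, with 4 residual degrees of freedom, was then fitted in edgeR 4.0.16 (R 4.3.3). Its quasi-likelihood F test was adjusted by Benjamini-Hochberg over all tested genes, at a threshold of 0.05. It was tested on simulated data.

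All 10 cleavage-stage genes passed the filter, which their high groups alone could satisfy. The same holds for tested genes of the other lists that had few reads under DMSO. Folds of genes with few reads come from reads pooled over a group and scaled by library totals adjusted by TMM, with 95% exact intervals. Where a group had 0 reads, a floor of 3 reads over the group gives a bound. Intervals and floors cover counting error only. Between replicates, the chi-square per gene was 2.34 to 8.77, above counting error alone.

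The 10 genes and the lists were chosen with earlier results of these data known. The genes named are these 10, FAM193A, CDKN1A and MDM2, from each list every gene called in either response (the 6 with the smallest p where more were called), and the 8 genes most like the members by correlation (log2 CPM with a prior count of 2, mean at least 0). Of the cell type lists other than the pluripotency and alveolar lists, the genes that this rule takes are given as sums, for length. A gene that the rule takes is not reported here. Alternatives were the size factors and the Wald test of DESeq2 1.42.0, scaling by upper quartiles, dropping the low-count filter, a replicate block, a fit of just the 4 libraries compared, limma 3.58.1 with trend on log2(RPKM + 0.1) and log2(RPKM + 1), and each library left out. Transcript stretches come from GENCODE v29 and promoters from RefSeq on GRCh38.p14, not the build of the counts, so no coordinate of the counts was used.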

Additional observations from a re-analysis of the deposited data

Results flagged for a closer look

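For genes of the lists that the choice of the 10 cleavage-stage genes did not use, the response to Nutlin-3a was compared between genotypes. The value is KO response minus WT response (log2, edgeR interaction test, adjusted p under 0.05). Genes picked by their likeness to the 10 are given too, as are SMCHD1, DNMT3B, SRSF8 and ZNF211, named after their values were seen. Of all tested genes, 14.2% had a higher and 13.4% a lower response in KO cells.

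Among genes of the embryonic families, the difference was -6.50 for TRIM49, -5.99 for MBD3L2, -5.75 for PRAMEF12, -4.81 for RFPL4A and -4.55 for TRIM53AP. All 5 had 0 reads in WT DMSO libraries, so the fitted sizes depend on the prior count. Their high groups alone could satisfy the low-count filter, and the lists were chosen with earlier results of these data known. These calls are therefore a description and no independent support. On log2(RPKM + 1) the difference of RFPL4A and of TRIM53AP turned positive and those of TRIM49 and MBD3L2 were no longer called. The RFPL4A call was lost without WT DMSO replicate 1 (adjusted p = 0.122), WT DMSO replicate 2 (0.116) or KO DMSO replicate 1 (0.0563). That of TRIM53AP was lost without WT DMSO replicate 1 (0.148), WT DMSO replicate 2 (0.141), KO DMSO replicate 1 (0.0518), KO DMSO replicate 2 (0.116) or KO Nutlin-3a replicate 1 (0.0612).

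Among the silencing genes the fall with Nutlin-3a was smaller in KO cells by 1.84 for CHAF1B, 0.75 for DNMT1, 0.72 for CHAF1A, 0.64 for EZH2, 0.63 for RBBP7, 0.47 for SMCHD1, 0.45 for UHRF1 and 0.34 for DNMT3B. The DNMT3B call was lost with each of the 8 libraries left out in turn.

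The p53 targets MDM2 and CDKN1A differed by -1.23 and -0.27. The CDKN1A call was lost without WT DMSO replicate 1 (adjusted p = 0.0573) or KO DMSO replicate 1 (0.0605). Among the KDM4 genes the difference was -0.96 for KDM4B, -0.57 for KDM4A and -0.29 for KDM4C, and the KDM4C call was lost without WT DMSO replicate 1 (0.0602), WT DMSO replicate 2 (0.0847), KO DMSO replicate 2 (0.121), KO Nutlin-3a replicate 1 (0.0549) or KO Nutlin-3a replicate 2 (0.0805).

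Of the genes most like the 10 over the libraries, FAM19A2 differed by -0.80, ZNF337 by -0.55, CROT by -0.53, LITAF by -0.40, ENC1 by -0.38 and TRIM32 by -0.34. They were picked by likeness to the members over these same libraries, where the members had the smaller fold in KO cells. That choice favours negative differences, so these values are a description and no independent support. The FAM19A2 call was lost without WT DMSO replicate 2 (0.0851) or KO DMSO replicate 2 (0.0857). Of the genomic neighbours, SRSF8 differed by -0.48 and ZNF211 by -0.34, the latter call being lost without WT DMSO replicate 1 (0.0551), WT DMSO replicate 2 (0.119), WT Nutlin-3a replicate 2 (0.0594), KO DMSO replicate 1 (0.104), KO DMSO replicate 2 (0.0828) or KO Nutlin-3a replicate 2 (0.142).

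Of the pluripotency genes, SALL4 differed by 0.34, a call lost with any DMSO library or any KO Nutlin-3a library left out (adjusted p = 0.051 to 0.101).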

How the results depend on the processing

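The count of the 10 cleavage-stage genes called higher in KO cells under DMSO was 2 when only the 4 DMSO libraries were fitted, where the other 8 failed the low-count filter and were not tested, 5 with limma on log2(RPKM + 1), and 6 without the 3 libraries with unshared reads, an alternative chosen after seeing the data. It was 9 with the DESeq2 Wald test and 8 to 10 with 1 library left out. Under Nutlin-3a the count was 8 with limma on log2(RPKM + 1), where KDM4E and SLC34A2 were called too and TRIM48 was called lower (-0.20), 5 with the DESeq2 Wald test and 5 to 6 with 1 library left out. The difference of responses turned positive on log2(RPKM + 1) for TRIM49B (1.27), TRIM53AP (0.15), RFPL4A (0.88) and RFPL4AL1 (0.73), and the cause was not tested. The fifth was UHRF1: in KO against WT cells under Nutlin-3a it turned to -0.16 without those 3 libraries (main value 0.0099, not called). Over the alternatives, 570 values of the 10 genes kept their call or stayed within the replicate spread, 78 untested values moved beyond it, 21 lost and 3 gained a call, and 0 reversed. For the other genes 3982 kept their call, 221 lost and 52 gained one, and 5 reversed, named here. The replicate numbers mark no shared batch in the labels, and same-numbered libraries deviated together with correlations of -0.0226 to 0.232. With the replicate number as a block, 10 and 6 of the 10 genes were called, as without it, and 9323 genes in the WT response against 9307. Genes at 0 to 3 reads in WT DMSO limit every fold against that group.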
